A study of Mus musculus with 18 samples.

Results

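The unfolded protein response genes followed here are 10 genes chosen by symbol, Hspa5, Hsp90b1, Pdia4, Dnajb9, Herpud1, Xbp1, Ddit3, Calr, Sdf2l1 and Creld2, and each matched 1 of the 38924 rows of the gene table. Their RNA was measured in primary fibroblasts of 3 organs, heart (HF), kidney (KF) and tail (TF), in 2 states each. All donors were Rosa mT/mG male mice on a C57BL/6 background, 10 weeks old, whose cells carry a membrane-bound red fluorescent protein, and the cells of every group had first grown for 10 days in culture. For the transplanted groups (HFs, KFs and TFs) the cells were placed in gelatin foam under the kidney capsule of C57BL/6J mice aged 10 to 11 weeks, and live CD45-, TdTomato+ cells were sorted from the kidneys 3 days later. For the cultured controls (HFc, KFc and TFc) the remaining cells were replated for those 3 days. So the transplanted groups differ from their controls by the host tissue, the foam, the dissociation of the kidney and, as far as the sources used here say, the sort, and these cannot be told apart. For the transplanted cells the study's methods name a total RNA library kit for low RNA input. They do not say which kit the cultured controls had, so RNA input and library preparation may also differ between the states. Each group had 3 libraries, 18 in all. The titles number them, but nothing says that the 3 libraries of a cultured group came from separate cultures or animals, so p-values measure the spread between these libraries, which may be technical in the cultured groups.

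The endoplasmic reticulum (ER) folds the proteins that a cell secretes or places in membranes, and the unfolded protein response adjusts its capacity. It is read by 3 sensors in the ER membrane. IRE1 (gene Ern1) removes a short stretch from the Xbp1 mRNA so that it encodes an active transcription factor, ATF6 is cleaved to release a transcription factor, and PERK (gene Eif2ak3) phosphorylates a translation initiation factor, which lowers protein synthesis but raises the translation of ATF4. Fibroblasts pass large amounts of collagen and other matrix proteins through the ER, so the chaperones of this compartment are among their abundant transcripts.

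One library stood apart and is shown separately for the 10 genes and for some of the other genes. In KFs replicate 3 the female transcript Xist was at 1490.0 CPM (counts relative to the library total after TMM scaling) and Y-linked genes summed to 0.722 CPM, although the donors are labelled male. In the other 17 libraries Xist was at most 0.404 CPM and the Y-linked sum at least 175 CPM. The deposited name of KFs replicate 3 also carries no replicate number, unlike the names of the other 17, and only its title numbers it. This library is given with its own value, and the counts of the 10 genes that rest on it are given with and without it. For the other genes of the pathway the counts without it are given where they change. Library totals lay between 17927838 and 32245168 counts, and each of the 10 genes passed the filter on low counts. The summed level of 10 fibroblast markers was 19000 to 26300 CPM in the cultured libraries and 34600 to 131000 CPM in the transplanted libraries other than KFs replicate 3, which was at 21200 CPM. Most of this sum was the collagens Col1a1, Col1a2 and Col3a1, which are also among the matrix genes below. In heart Pdgfra, Pdgfrb, Dcn and Lum were higher too, but Vim fell from 4950 to 5230 CPM in HFc to 2050 to 2370 CPM in HFs. Thy1 fell from 123 to 130 CPM to 24.9 to 44.5 CPM. Lum was at only 0.0349 to 0.224 CPM in KFc. The marker sums of other cell types follow the pathway lists.

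The 10 genes fall into 4 roles. Hspa5 (BiP, the HSP70 of the ER, chr2:34771970-34777547) and Hsp90b1 (GRP94, the HSP90 of the ER, chr10:86690209-86705509) bind unfolded chains, Calr (calreticulin, chr8:84841850-84846934) is a lectin chaperone that retains glycoproteins and binds calcium, and Pdia4 (ERp72, chr6:47796141-47813430) forms and rearranges disulfide bonds. Sdf2l1 (chr16:17130138-17132383), Creld2 (chr15:88819646-88826683) and the BiP partner Dnajb9 (ERdj4, chr12:44205559-44210326) are small ER-resident cofactors or folding enzymes. Herpud1 (HERP, chr8:94386438-94395377) belongs to the machinery that returns misfolded proteins to the cytosol for degradation. Xbp1 (chr11:5520659-5525893) and Ddit3 (CHOP, chr10:127290774-127296288) encode transcription factors of the response. All positions are on GRCm38, from GENCODE release M21, which lists the 10 as protein-coding genes. Hsp90b1 overlaps the transcript Gm15344 on its own strand and the pseudogene 1810014B01Rik on the opposite strand, which held 0.0402% and 0.0219% as many counts as Hsp90b1 over all libraries. Ddit3 shares 68 bases at its end with Mars on the opposite strand, and the counting used strand. The release also lists a gene of the same symbol inside Ddit3 that is no row of the table, so the Ddit3 counts may include its reads.

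Several of these genes are textbook targets of the response through the ER stress response element (ERSE: CCAAT, 9 bases of any kind, CCACG), which the factors NF-Y and ATF6 bind together. The 300 bases from 250 before to 50 after each start were read from RefSeq on GRCm38.p6, where all 10 genes had an entry, and were searched on both strands. The ERSE was present for 4 of the 10 genes, Hspa5, Hsp90b1 (in 2 copies), Calr and Creld2, and in 0.119% of 32851 such windows. ERSE-II, in which 1 base separates ATTGG from CCACG, was found for Herpud1, as in 0.0365% of windows. The XBP1 and ATF6 core TGACGTG was found for Hspa5, as in 2.01% of windows, and TGATGNAA, a composite bound by C/EBP and ATF factors, for Herpud1, as in 3.97% of windows. The part CCAAT alone, which overlaps the ERSE, occurred for 9 genes and in 37.4% of windows, and the part CCACG for 8 genes and in 32.8% of windows. Such a match is a description of the sequence and does not show binding. The 250 bases before the start are printed for the 5 genes with an ERSE or ERSE-II, with the ERSE, ERSE-II, TGACGTG and TGATGNAA matches of either strand in capitals.
Hspa5, chr2:34771840-34772089, plus strand: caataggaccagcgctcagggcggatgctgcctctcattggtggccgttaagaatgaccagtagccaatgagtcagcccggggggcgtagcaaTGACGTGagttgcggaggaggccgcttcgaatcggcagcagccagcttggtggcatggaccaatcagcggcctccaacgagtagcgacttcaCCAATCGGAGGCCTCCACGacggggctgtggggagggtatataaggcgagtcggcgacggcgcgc
Hsp90b1, chr10:86705445-86705694, minus strand: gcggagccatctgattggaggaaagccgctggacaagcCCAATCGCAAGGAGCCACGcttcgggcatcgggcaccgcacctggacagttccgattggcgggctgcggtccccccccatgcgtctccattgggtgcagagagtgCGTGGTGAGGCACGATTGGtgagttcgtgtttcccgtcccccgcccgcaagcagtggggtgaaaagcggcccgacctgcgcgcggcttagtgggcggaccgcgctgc
Calr, chr8:84846932-84847181, minus strand: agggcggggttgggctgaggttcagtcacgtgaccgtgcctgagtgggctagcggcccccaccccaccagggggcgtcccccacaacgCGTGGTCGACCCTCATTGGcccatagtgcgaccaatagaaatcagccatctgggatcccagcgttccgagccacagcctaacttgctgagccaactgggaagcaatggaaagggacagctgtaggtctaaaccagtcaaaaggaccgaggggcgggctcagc
Creld2, chr15:88819396-88819645, plus strand: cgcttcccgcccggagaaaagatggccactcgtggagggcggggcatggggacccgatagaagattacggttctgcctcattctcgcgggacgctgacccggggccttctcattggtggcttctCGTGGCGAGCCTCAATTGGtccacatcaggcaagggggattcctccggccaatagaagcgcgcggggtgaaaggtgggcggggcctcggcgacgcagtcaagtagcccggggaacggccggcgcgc
Herpud1, chr8:94386179-94386428, plus strand: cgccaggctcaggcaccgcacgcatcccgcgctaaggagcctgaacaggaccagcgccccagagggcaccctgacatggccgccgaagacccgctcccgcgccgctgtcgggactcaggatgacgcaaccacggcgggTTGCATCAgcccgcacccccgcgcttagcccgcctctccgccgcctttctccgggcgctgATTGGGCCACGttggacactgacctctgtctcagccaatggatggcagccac
Counted from the start, the ERSE of Hspa5 began at position -65, that of Calr at -162 and that of Creld2 at -126, while the copies of Hsp90b1 began at -212 and -107. ERSE-II of Herpud1 began at -52.

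The 26-base stretch that IRE1 removes from the Xbp1 mRNA is shown because the deposited counts cannot tell its presence from its absence. It lies in the coding sequence, at bases 818 to 843 of the GENCODE transcript Xbp1-201, and is in capitals between 20 bases on either side.
Xbp1: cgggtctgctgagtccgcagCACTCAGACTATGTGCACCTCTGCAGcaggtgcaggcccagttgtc
The files hold 1 value per gene, so the Xbp1 levels below add the unspliced and the spliced mRNA.

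Compared per kilobase of exon (CPM per kb), the 4 abundant chaperones stood above the other 6 genes in all 6 groups. Group means ran from 346.2 to 688 CPM per kb for Calr, from 401 to 606 for Hsp90b1, from 165 to 303 for Pdia4 and from 135 to 251 for Hspa5. The highest mean of any of the other genes was 39.0 CPM per kb, for Creld2 in TFc. These values use the summed length of all annotated exons and move with that choice.

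In heart fibroblasts 6 of the 10 genes fell after transplantation and none rose. The 6 were Hspa5, Calr, Creld2, Sdf2l1, Dnajb9 and Herpud1. The first 3 are genes with an ERSE, while Hsp90b1, which also has it, was not called. No member was higher at an unadjusted p below 0.05 or by DESeq2 either, and the same held in tail fibroblasts. Over the whole genome the comparison was broad, with 28.0% of the 16577 genes tested higher and 28.4% lower at an adjusted p below 0.05 (edgeR quasi-likelihood test), so 6 falls of 10 stood beside a background of 28.4%. The median log2 change of the 10 genes was -0.70, against 0.05 over all genes.

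Hspa5 was at 994, 1029 and 1004 CPM in HFc and at 547, 541 and 624 CPM in HFs. Each transplanted library lay below each cultured one, and the fall was 0.82 on the log2 scale (log2 fold change -0.82 ± 0.14, SE, adjusted p = 0.000123). Calr was at 1810.0, 1912 and 1867 CPM in HFc and at 876, 905 and 1210.0 CPM in HFs. Calr thus fell in all 3 libraries, with replicate 3 less low than the other two (-0.90 ± 0.19, adjusted p = 0.000824). Creld2 was at 41.8, 43.7 and 42.1 CPM in HFc and at 21.2, 21.4 and 19.9 CPM in HFs, a fall with little spread in either group (-1.03 ± 0.09, adjusted p = 3.27e-07). Sdf2l1, a component of the BiP chaperone cycle, showed the deepest fall of the 10. It was at 17.5, 16.5 and 15.9 CPM in HFc and at 4.81, 5.02 and 7.44 CPM in HFs (-1.52 ± 0.21, adjusted p = 1.68e-05).

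Hsp90b1 was at 2226, 2316 and 2249 CPM in HFc and at 1479, 1522 and 1862 CPM in HFs. The groups did not overlap, but the difference did not pass the threshold (-0.48 ± 0.21, adjusted p = 0.0571), and it did without KFs replicate 3 in the shared estimate of spread (-0.46, adjusted p = 0.00179). Pdia4 was at 446, 466 and 473 CPM in HFc and at 444, 432 and 450.2 CPM in HFs. These ranges overlapped, and no change was detected in this disulfide isomerase (-0.06 ± 0.16, adjusted p = 0.756). Xbp1 likewise overlapped, at 71.7, 73.5 and 71.9 CPM in HFc and 74.0, 69.1 and 69.8 CPM in HFs (-0.03 ± 0.14, adjusted p = 0.877). Ddit3 spread widely after transplantation, with 35.2, 37.2 and 37.0 CPM in HFc and 30.4, 45.5 and 23.5 CPM in HFs (-0.14 ± 0.22, adjusted p = 0.623).

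**Figure D1:**
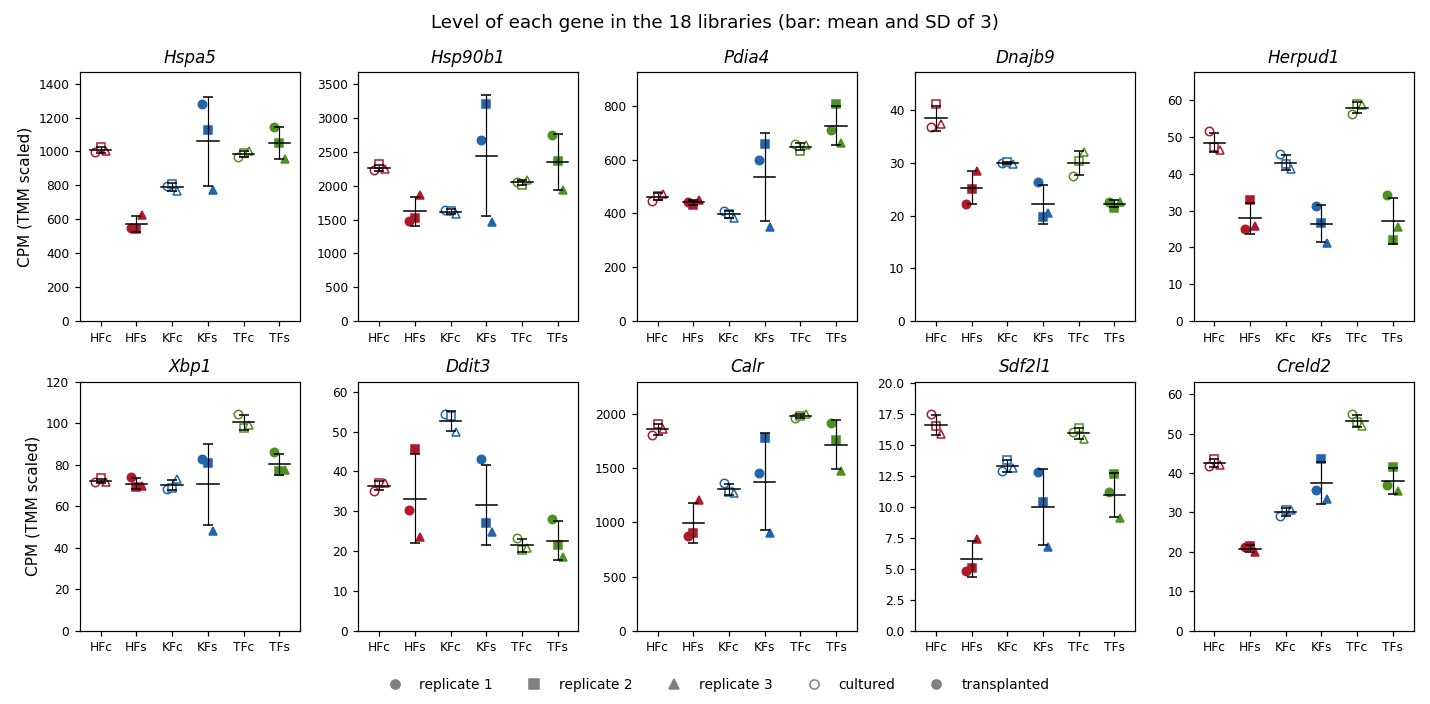
Level of each of the 10 genes in the 18 libraries, as TMM-scaled CPM on linear axes from 0. Open symbols are cultured and filled symbols transplanted libraries of heart (red), kidney (blue) and tail (green), symbol shapes mark replicates 1 to 3, and black bars give the mean and SD (n = 3). Hspa5 lies at 541 to 624 CPM in HFs, below every other library, and KFs replicate 3 (blue triangle) is the lowest KFs library for 9 of the 10 genes.

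In kidney fibroblasts the abundant chaperones Hspa5, Hsp90b1 and Pdia4 rose, as did Creld2, while Dnajb9, Herpud1 and Ddit3 fell. So 4 of the 10 genes were higher and 3 lower, while 26.1% of all genes tested were higher and 22.7% lower. The median change of the 10 genes was 0.04 on the log2 scale and that of all genes 0.09. For Hspa5, Hsp90b1 and Pdia4 only replicates 1 and 2 lay above the cultured libraries, and for Creld2 all 3 did.

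Hspa5 was at 796, 809 and 766 CPM in KFc and at 1278, 1128 and 772 CPM in KFs. The first 2 transplanted libraries lay above all cultured ones and replicate 3 within them (0.42 ± 0.14, adjusted p = 0.0183). Hsp90b1 was at 1646, 1629 and 1577 CPM in KFc and at 2672, 3204 and 1460.0 CPM in KFs (0.60 ± 0.21, adjusted p = 0.0254). Pdia4 was at 409, 397 and 384 CPM in KFc and at 598, 658 and 349.5 CPM in KFs (0.43 ± 0.16, adjusted p = 0.0347). In both, replicate 3 lay below the cultured libraries. Creld2 was the only rising member whose groups did not overlap, at 29.0, 30.6 and 30.7 CPM in KFc and at 35.7, 43.5 and 33.4 CPM in KFs (0.32 ± 0.09, adjusted p = 0.00979).

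Calr was at 1362, 1282 and 1273 CPM in KFc and at 1459, 1776 and 898 CPM in KFs, with replicate 3 lowest and the others above the cultured range (0.08 ± 0.19, adjusted p = 0.756). Sdf2l1 ranged from 12.9 to 13.8 CPM in KFc and was at 12.9, 10.4 and 6.73 CPM in KFs (-0.41 ± 0.20, adjusted p = 0.103). Xbp1 ranged from 68.4 to 73.0 CPM in KFc and was at 83.0, 80.8 and 48.0 CPM in KFs (0.01 ± 0.14, adjusted p = 0.962). Replicate 3 was the lowest KFs library for all 3 genes. Ddit3, the CHOP gene, fell from 54.4, 54.0 and 49.9 CPM in KFc to 43.2, 27.0 and 24.8 CPM in KFs (-0.74 ± 0.22, adjusted p = 0.0126).

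Without KFs replicate 3 the kidney comparison called 8 of the 10 genes, 5 higher and 3 lower, while 24.5% of the 16923 genes then tested were higher and 26.9% lower. The rises were then 0.56 ± 0.08 for Hspa5 (adjusted p = 3.74e-05), 0.82 ± 0.12 for Hsp90b1 (adjusted p = 3.92e-05) and 0.62 ± 0.08 for Pdia4 (adjusted p = 5.41e-06), and Xbp1 was added at 0.18 ± 0.06 (adjusted p = 0.028). Without replicate 2 in its place the count was 3, without KFc replicate 3 it was 4, and in a fit of KFs and KFc alone, with replicate 3 kept, it was 2, the falls of Herpud1 and Ddit3. The rises of Hspa5, Hsp90b1 and Pdia4 thus rest on 2 of the 3 KFs libraries. That of Creld2 was present in all 3, but its call ended in the fit of the 2 groups alone (0.32, adjusted p = 0.119) and without replicate 2 (0.15, adjusted p = 0.133).

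In tail fibroblasts no member rose and 4 fell, Dnajb9, Herpud1, Sdf2l1 and Creld2, beside 18.6% of all genes higher and 20.2% lower. The median change of the 10 genes was -0.26 and that of all genes 0.00. Hspa5 was at 967, 989 and 1003 CPM in TFc and at 1143, 1049 and 954 CPM in TFs, overlapping groups with no change detected (0.09 ± 0.14, adjusted p = 0.636). Hsp90b1 was at 2053, 2008 and 2088 CPM in TFc and at 2754, 2371 and 1932 CPM in TFs (0.20 ± 0.21, adjusted p = 0.468). Pdia4 was at 659, 634 and 654 CPM in TFc and at 711, 806 and 662 CPM in TFs, which did not overlap and did not pass the test (0.16 ± 0.16, adjusted p = 0.442). None of these 3 chaperones passed the test in the tail cells.

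The smaller folding factors of the tail cells were lower after transplantation. Creld2 was at 55.0, 52.9 and 51.9 CPM in TFc and at 36.9, 41.6 and 35.4 CPM in TFs (-0.49 ± 0.09, adjusted p = 0.000674). Sdf2l1 was at 16.1, 16.4 and 15.5 CPM in TFc and at 11.2, 12.6 and 9.08 CPM in TFs (-0.54 ± 0.20, adjusted p = 0.0437), a call that ended with no filter on low counts (adjusted p = 0.0657) and without any one of 5 of the 6 libraries compared (adjusted p = 0.0706 to 0.166). Both had groups that did not overlap. Calr was at 1961, 1985 and 2002 CPM in TFc and 1923, 1765 and 1472 CPM in TFs (-0.20 ± 0.19, adjusted p = 0.411), and Xbp1 at 104, 97.7 and 99.0 CPM in TFc and 86.2, 77.1 and 77.6 CPM in TFs (-0.32 ± 0.14, adjusted p = 0.082). Both were lower in every transplanted library without passing the test. Ddit3 overlapped, at 20.4 to 23.3 CPM in TFc and 18.4 to 28.0 CPM in TFs (0.08 ± 0.23, adjusted p = 0.820).

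Herpud1 and Dnajb9 were the members that fell in all 3 organs, and in each organ their transplanted and cultured libraries did not overlap. Herpud1 was at 51.5, 47.4 and 46.5 CPM in HFc and 25.1, 32.8 and 25.9 CPM in HFs (-0.80 ± 0.16, adjusted p = 0.000454). It was at 45.3, 42.6 and 41.2 CPM in KFc and 31.4, 26.7 and 21.3 CPM in KFs (-0.70 ± 0.15, adjusted p = 0.0015). In the tail cells it fell from 56.1, 58.9 and 58.8 CPM to 34.2, 22.0 and 25.4 CPM (-1.09 ± 0.16, adjusted p = 6.62e-05). So Herpud1 ranged from 41.2 to 58.9 CPM over the 3 cultured groups and from 21.3 to 34.2 CPM over the transplanted ones. No difference in its response was detected for heart against tail (0.30 ± 0.22, adjusted p = 0.36), kidney against tail (0.39 ± 0.22, adjusted p = 0.284) or heart against kidney (-0.09 ± 0.22, adjusted p = 0.811). Dnajb9, a partner of BiP that restrains IRE1, was at 36.9, 41.2 and 37.3 CPM in HFc and 22.3, 25.1 and 28.6 CPM in HFs (-0.60 ± 0.11, adjusted p = 0.00034). It was at 29.9, 30.2 and 29.8 CPM in KFc and 26.5, 19.7 and 20.4 CPM in KFs (-0.43 ± 0.11, adjusted p = 0.00508), and at 27.6, 30.4 and 32.0 CPM in TFc and 22.7, 21.5 and 22.6 CPM in TFs (-0.43 ± 0.11, adjusted p = 0.00737). Without KFs replicate 3 the kidney values were -0.61 ± 0.15 for Herpud1 (adjusted p = 0.0027) and -0.42 ± 0.12 for Dnajb9 (adjusted p = 0.0092).

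**Figure D2:**
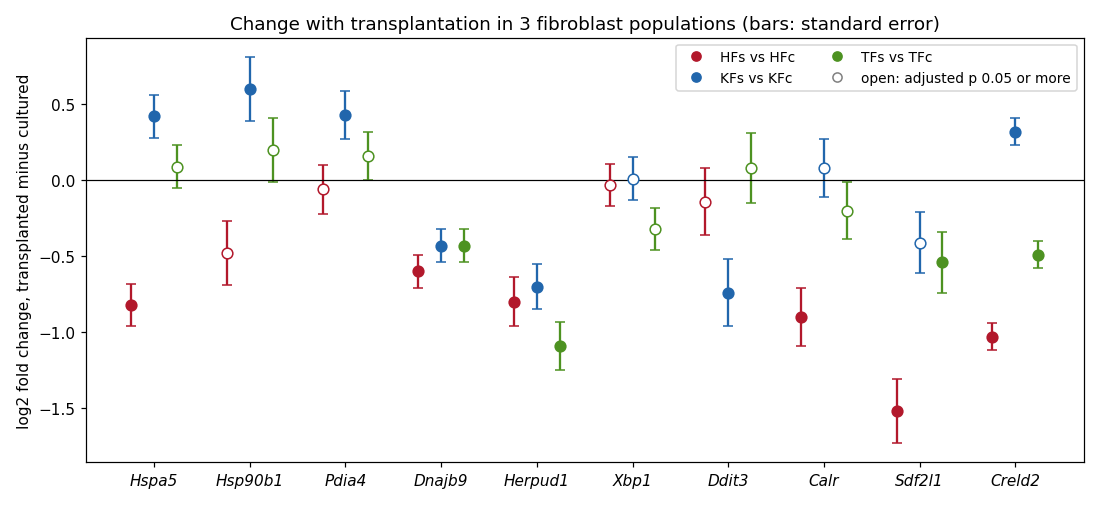
Log2 fold change of each gene, transplanted minus cultured, with its standard error, in heart (red), kidney (blue) and tail (green) fibroblasts. Filled points have an adjusted p below 0.05 (edgeR) and open points do not. Dnajb9 and Herpud1 are filled and below 0 in all 3 organs, while Hspa5 and Creld2 are filled on opposite sides of 0 in heart and kidney.

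With the additional limit of a log2 change beyond 1 in either direction, 2 members passed in heart (Sdf2l1 and Creld2), none in kidney and 1 in tail (Herpud1), beside 27.7%, 22.6% and 16.5% of all genes. All other changes of the 10 genes with transplantation stayed within a log2 change of 1.

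Whether the response to transplantation differed between organs was tested as the difference of the log2 changes. Heart against kidney differed for 5 of the 10 genes, all more negative in heart, where 10.7% of all genes were more positive and 15.5% more negative in heart. The differences were -1.24 ± 0.19 for Hspa5 (adjusted p = 0.000366), -1.08 ± 0.29 for Hsp90b1 (adjusted p = 0.0128), -0.98 ± 0.27 for Calr (adjusted p = 0.0132), -1.12 ± 0.29 for Sdf2l1 (adjusted p = 0.00956) and -1.35 ± 0.13 for Creld2 (adjusted p = 1.11e-05). Among these 5 are the 4 genes with an ERSE before their start. Sdf2l1 had both parts but not at that spacing, as did Pdia4, Dnajb9 and Herpud1, which were not called here. Whether the ERSE has a part in these differences was not tested. Without KFs replicate 3 the same contrast called 6, those 5 and Pdia4 (-0.66 ± 0.10, adjusted p = 0.000161). All 6 were more negative in heart, beside 17.2% of all genes, and the share of all genes more positive in heart was then also above 10.7%. Without HFs replicate 1 or HFs replicate 2 the contrast called 3. For Herpud1, Dnajb9, Xbp1 and Ddit3 no difference between heart and kidney was detected, with values of -0.09 ± 0.22, -0.17 ± 0.16, -0.04 ± 0.20 and 0.60 ± 0.32.

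Heart against tail differed for Hspa5 (-0.91 ± 0.19, adjusted p = 0.00368), Sdf2l1 (-0.98 ± 0.29, adjusted p = 0.0217) and Creld2 (-0.54 ± 0.13, adjusted p = 0.00791), all more negative in heart, where 10.1% of all genes were more positive and 12.7% more negative. Kidney against tail differed for Creld2 alone (0.80 ± 0.13, adjusted p = 0.00115), more positive in kidney, where 4.99% of all genes were more positive and 6.07% more negative. Without KFs replicate 3 kidney against tail called 5 genes, all more positive in kidney, where 9.72% of all genes were then more positive and 11.7% more negative. It added Hspa5 (0.49 ± 0.11, adjusted p = 0.00576), Hsp90b1 (0.64 ± 0.16, adjusted p = 0.0118), Pdia4 (0.48 ± 0.10, adjusted p = 0.00387) and Xbp1 (0.52 ± 0.09, adjusted p = 0.000553). Heart against tail then called 6, beside 16.0% of all genes more positive and 16.2% more negative. Hsp90b1 (-0.64 ± 0.16, adjusted p = 0.00516) and Calr (-0.66 ± 0.16, adjusted p = 0.00575) were added as more negative in heart and Xbp1 (0.33 ± 0.08, adjusted p = 0.00626) as more positive. These comparisons share their control libraries in part and are not independent of each other.

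**Figure D3:**
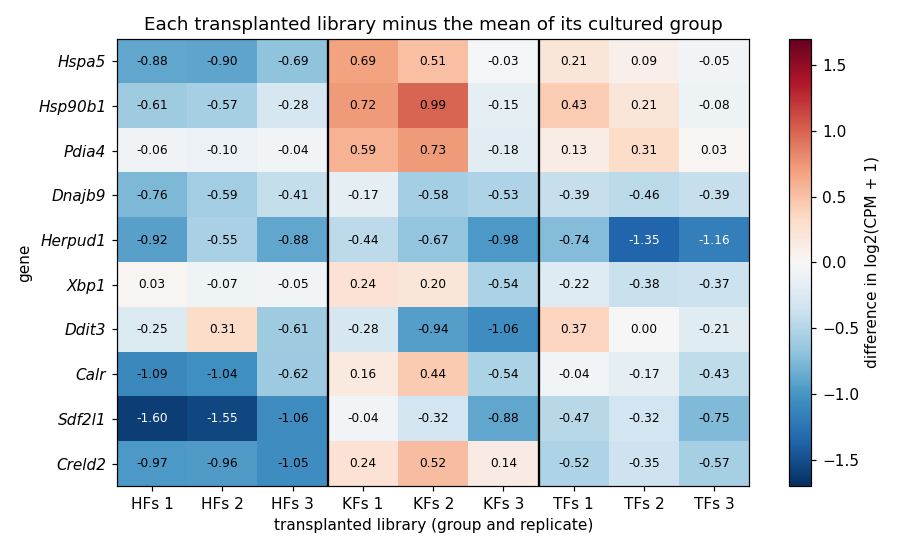
Difference in log2(CPM + 1) between each transplanted library (columns, group and replicate) and the mean of its own cultured group, for each gene (rows), with the value printed in each cell and blue for lower and red for higher. HFs libraries run down to -1.60 (Sdf2l1), KFs replicates 1 and 2 are above 0 for 6 genes each and KFs replicate 3 for 1 gene.

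Library by library, the median difference of the 10 genes from the cultured mean was -0.82, -0.58 and -0.61 in HFs, 0.20, 0.32 and -0.54 in KFs and -0.13, -0.24 and -0.38 in TFs, in log2(CPM + 1). KFs replicate 3 was thus nearer to the HFs and TFs libraries than to the other KFs libraries in this respect. The coefficient of variation over the 3 libraries of a group had a median over the 10 genes of 2.83%, 3.37% and 2.73% in HFc, KFc and TFc, and of 12.7%, 29.2% and 11.7% in HFs, KFs and TFs. The fit used 1 spread per gene for all groups, so its errors are wide for the cultured and narrow for the KFs libraries.

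Between the cultured organs, 7 of the 10 genes differed in at least 1 pair, beside 57.6% of all genes tested, and Hspa5, Hsp90b1 and Sdf2l1 in none. Heart against tail called 2 genes higher and 3 lower, beside 20.9% and 21.0% of all genes. Dnajb9 (0.36 ± 0.11, adjusted p = 0.0178) and Ddit3 (0.77 ± 0.23, adjusted p = 0.0123) were higher in HFc, and Pdia4 (-0.49 ± 0.16, adjusted p = 0.0214), Xbp1 (-0.47 ± 0.14, adjusted p = 0.0135) and Creld2 (-0.33 ± 0.09, adjusted p = 0.00929) were lower. Kidney against tail called 1 higher and 5 lower, beside 17.8% and 18.5% of all genes. (Without KFs replicate 3 the calls were 1 and 7, beside 22.5% and 21.3%.) Ddit3 was higher in KFc (1.30 ± 0.23, adjusted p = 0.000372), and Creld2 (-0.82 ± 0.09, adjusted p = 5.79e-06), Pdia4 (-0.71 ± 0.16, adjusted p = 0.00271), Calr (-0.60 ± 0.19, adjusted p = 0.0203), Xbp1 (-0.52 ± 0.14, adjusted p = 0.00963) and Herpud1 (-0.43 ± 0.15, adjusted p = 0.039) were lower. The call of Herpud1 ended with DESeq2 (adjusted p = 0.0509) and, in edgeR, without any 1 of the KFc or TFc libraries (adjusted p = 0.0642 to 0.115). That of Calr ended without replicate 2 or 3 of KFc or TFc (adjusted p = 0.0601 to 0.0638). Heart against kidney called Dnajb9 (0.36 ± 0.11, adjusted p = 0.0246) and Creld2 (0.50 ± 0.09, adjusted p = 0.000747), both higher in HFc, beside 15.1% of all genes higher and 14.0% lower. That count fell to 1 without HFc replicate 2 or any 1 KFc library. It was 6 without KFs replicate 3, 5 of them higher in HFc and 1 lower. In that fit 19.3% of all genes were lower, and the share higher was also above 15.1%. Heart against tail called 3 without HFc replicate 2 or TFc replicate 1. Creld2 thus ran TFc, HFc, KFc from high to low with no overlap between neighbours, and Ddit3 ran the other way, KFc, HFc, TFc, also without overlap.

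After transplantation heart stood below tail in 5 genes and above it in none, beside 12.7% of all genes lower and 10.3% higher. The 5 were Hspa5 (-0.88 ± 0.14, adjusted p = 0.000254), Pdia4 (-0.72 ± 0.16, adjusted p = 0.00404), Calr (-0.79 ± 0.19, adjusted p = 0.00659), Sdf2l1 (-0.92 ± 0.21, adjusted p = 0.00419) and Creld2 (-0.87 ± 0.09, adjusted p = 7.13e-06). Heart stood below kidney in 4 genes and above it in none, beside 19.0% lower and 14.2% higher, namely Hspa5 (-0.89 ± 0.14, adjusted p = 0.000204), Hsp90b1 (-0.59 ± 0.21, adjusted p = 0.0369), Sdf2l1 (-0.79 ± 0.21, adjusted p = 0.00828) and Creld2 (-0.85 ± 0.09, adjusted p = 1.04e-05). Without KFs replicate 3 that count was 7, all lower in heart, beside 20.7% of all genes lower and 18.1% higher. Without HFs replicate 2 it was 2. Heart against tail called 8 without KFs replicate 3, 7 of them lower in heart, beside 16.3% of all genes lower and 14.7% higher. In a fit of the 9 transplanted libraries with the level of proximal tubule markers, genes of the host kidney, as a term, the differences stayed about as large with wider errors. The 5 genes of heart against tail ran from -0.88 to -0.69, and Creld2 kept the call (-0.84 ± 0.14, adjusted p = 0.0118) while the other 4 did not (adjusted p = 0.053 to 0.159). The 4 genes of heart against kidney ran from -0.88 to -0.55 and none kept it (adjusted p = 0.0578 to 0.451). Without that term, fits of only the groups compared called 5 members in heart against tail and 1 in heart against kidney. Kidney differed from tail in Pdia4 alone (-0.44 ± 0.16, adjusted p = 0.0486), beside 15.3% of all genes higher and 13.8% lower. It differed in no member without any 1 of the TFs libraries. Without KFs replicate 3 it differed in 2, beside 18.3% of all genes higher and 16.8% lower.

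The 6 group means were ordered differently from gene to gene. Hspa5 ran KFs, TFs, HFc, TFc, KFc and HFs from high to low, and the first 4 overlapped with their neighbours while TFc stood apart from KFc and KFc from HFs. Calr, Creld2 and Sdf2l1, like Hspa5, had their lowest mean in HFs. Pdia4 had its highest means in TFs (727 CPM) and TFc (649 CPM), of which TFc overlapped with KFs (535 CPM), and its lowest in KFc (397 CPM). Herpud1 and Dnajb9 were ordered by state, with all 3 cultured means above all 3 transplanted ones. Ddit3 was highest in KFc (52.8 ± 2.5 CPM, SD, n = 3) and lowest in TFc (21.4 CPM).

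The genes whose log2(CPM + 1) followed that of Hspa5 most closely over the 18 libraries, out of 16576, were Kars (Pearson r = 0.904), Nfyc (0.890), Stoml2 (0.888), Sf3a3 (0.882), Smc1a (0.879), Cdt1 (0.875), Mcm4 (0.868), Toe1 (0.866), Myc (0.863) and Znhit1 (0.854). None is one of the 10 genes. Hsp90b1 (0.839), Calr (0.827) and Creld2 (0.815) came 17th, 22nd and 30th, followed by Sdf2l1 (0.735), Pdia4 (0.637), Xbp1 (0.454), Herpud1 (0.256), Dnajb9 (0.119) and Ddit3 (-0.22). The 3 closest members are the other genes with an ERSE. The libraries form 6 groups, so these values describe shared group differences.

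The other genes of the pathway were read from lists of fixed membership. Beside the counts of all lists below stand 28.0% of all genes higher and 28.4% lower in heart. The shares are 26.1% and 22.7% in kidney (24.5% and 26.9% without KFs replicate 3) and 18.6% and 20.2% in tail. A count near these shares is no result about its list. Of 9 sensors and processing proteases, 2 rose and 4 fell in heart, 2 rose and 3 fell in kidney (3 and 3 without KFs replicate 3) and 4 fell in tail. The RNA of the sensor Atf6 fell in all 3 organs (-0.56 ± 0.08 in heart, -0.75 ± 0.08 in kidney and -0.60 ± 0.08 in tail, adjusted p = 2.02e-05, 1.72e-06 and 2.48e-05). Its link to the levels of the ERSE genes was not tested. Ern1 rose in kidney (0.51 ± 0.11, adjusted p = 0.00148) and was at 0.11 ± 0.11 in heart and -0.16 ± 0.11 in tail, while Eif2ak3 lay between -0.03 and 0.05 in the 3 organs. In KFs Ern1 was at 43.42, 57.15 and 64.66 CPM, and its kidney rise was 0.34 ± 0.10 without KFs replicate 3 (adjusted p = 0.0109). Creb3l1 (OASIS), a membrane-bound factor related to ATF6 that serves collagen secretion, rose in heart (1.59 ± 0.24, adjusted p = 5.6e-05) and in kidney (0.61 ± 0.24, adjusted p = 0.0434), and its relative Creb3 fell in heart (-1.24), kidney (-0.90) and tail (-0.64). In KFs Creb3l1 was at 293.2, 401.0 and 143.0 CPM, with replicate 3 below the 175.1 to 187.5 CPM of KFc. Without that library its kidney rise was 0.89 ± 0.13 (adjusted p = 2.5e-05).

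Of 18 further ER chaperones and folding enzymes, 1 rose and 9 fell in heart, 4 rose and none fell in kidney, and 1 rose and 7 fell in tail, with medians of -0.37, 0.12 and -0.14. The largest fall in heart was that of Manf, a secreted ER stress protein (-1.34 ± 0.18, adjusted p = 1.88e-05), and the largest rise in kidney that of the disulfide isomerase Pdia6 (0.89 ± 0.16, adjusted p = 0.000289), which also rose in tail (0.43 ± 0.16, adjusted p = 0.0407). The collagen-folding isomerase Ppib rose in heart (0.45 ± 0.17, adjusted p = 0.0336) and kidney (0.62 ± 0.17, adjusted p = 0.00674), and the oxidase Ero1b had the largest fall in tail (-0.76 ± 0.25, adjusted p = 0.0235). In KFs Ppib was at 269.8, 299.4 and 149.4 CPM, with replicate 3 below the 150.4 to 161.3 CPM of KFc. Without replicate 3 its kidney rise was 0.83 ± 0.07 (adjusted p = 2.15e-07). The heart and kidney responses differed for 9 of the 18, all more negative in heart, beside 15.5% of all genes. Without KFs replicate 3 they differed for 15, all more negative in heart, beside 17.2% of all genes. Without that library 8 rose in kidney.

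Of 20 genes of translocation into and export from the ER, 1 rose and 8 fell in heart, 6 rose and 3 fell in kidney and 4 fell in tail, with medians of -0.17, 0.23 and -0.14. The translocon partner Ssr2 had the largest rise in kidney (1.19 ± 0.20, adjusted p = 0.000181), the signal peptidase subunit Sec11c the largest fall in heart (-1.26 ± 0.14, adjusted p = 3.2e-06), where the retrieval receptor Kdelr1 rose (0.41 ± 0.15, adjusted p = 0.0261), and Spcs1, of the signal peptidase too, the largest in kidney (-0.86) and tail (-0.84). Without KFs replicate 3, 13 rose and 3 fell in kidney.

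In ER-associated degradation, to which Herpud1 belongs, more genes fell than rose in every organ. Of 14 genes 13 were tested, and 11 fell and 1 rose in heart, 8 fell and 1 rose in kidney and 10 fell and 1 rose in tail, with medians of -0.43, -0.30 and -0.40. Selenos, which links the pathway to the segregase VCP, had the largest fall each time (-1.13 ± 0.15, -0.74 ± 0.15 and -0.91 ± 0.15, adjusted p = 1.18e-05, 0.000707 and 0.000194). Os9, a lectin of the pathway, rose in heart (0.71 ± 0.09, adjusted p = 9.94e-06) and tail (0.30 ± 0.09, adjusted p = 0.0158), and the mannosidase-like Edem2 rose in kidney (0.32 ± 0.11, adjusted p = 0.0315). That call ended without KFs replicate 3 (0.29 ± 0.12, adjusted p = 0.0601), when 7 genes of the list fell in kidney.

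The PERK, ATF4 and CHOP arm moved in both directions. Of 13 genes, 4 rose and 7 fell in heart, 2 rose and 7 fell in kidney and 2 rose and 6 fell in tail. Atf4 fell in all 3 organs (-0.93 ± 0.11, -0.42 ± 0.10 and -0.98 ± 0.11, adjusted p = 2.78e-06, 0.00359 and 4.73e-06), and Chac1, a glutathione-degrading target of ATF4, had the largest fall each time (-4.18 ± 0.62, -2.46 ± 0.55 and -4.30 ± 0.66). The factor Atf3, which is also an immediate early gene, rose in heart (2.33 ± 0.60, adjusted p = 0.00364), kidney (3.44 ± 0.57, adjusted p = 0.000162) and tail (1.97 ± 0.64, adjusted p = 0.0233). The ER oxidase Ero1a, a CHOP and hypoxia target, also rose in all 3, by 0.99 ± 0.39 in heart (adjusted p = 0.0397), 1.18 ± 0.39 in kidney (adjusted p = 0.0201) and 2.06 ± 0.40 in tail (adjusted p = 0.000895). Its transplanted libraries spread widely, at 82.0, 141.4 and 228.0 CPM in HFs against 70.07 to 78.84 CPM in HFc. It was at 198.6, 173.1 and 77.69 CPM in KFs (61.98 to 69.98 CPM in KFc) and 231.8, 91.83 and 89.87 CPM in TFs (31.99 to 34.02 CPM in TFc). In kidney the rise of Atf3 was 2.30 ± 0.40 and the fall of Chac1 -3.57 ± 0.47 without KFs replicate 3, both still called.

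**Figure D4:**
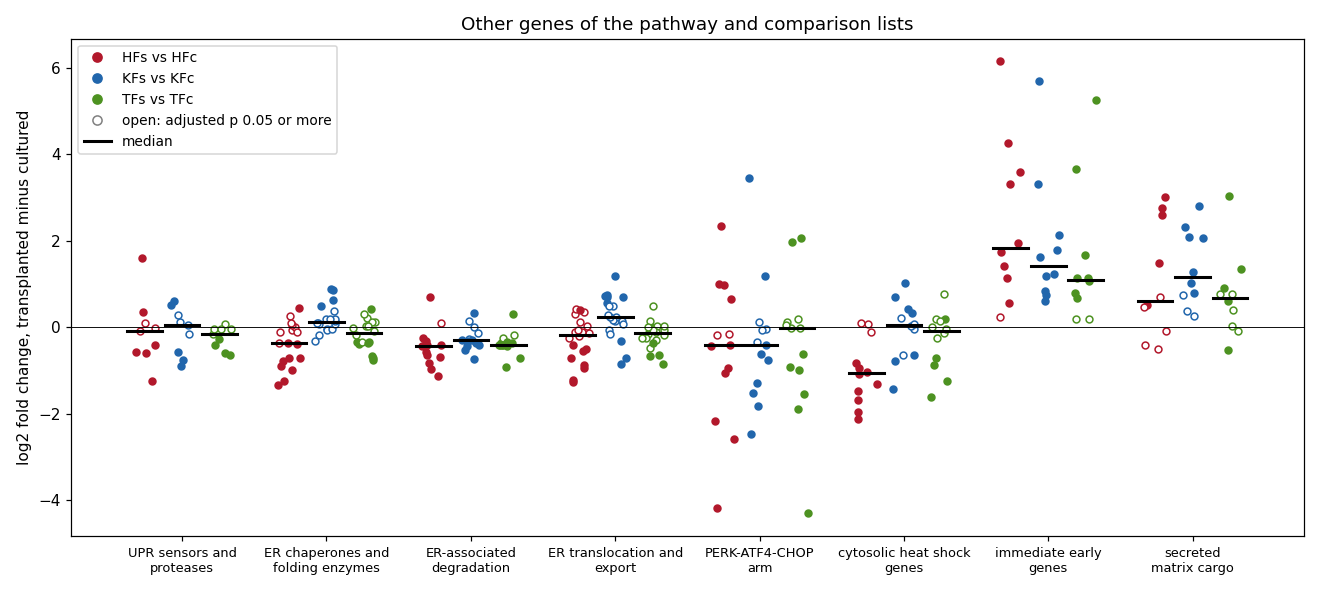
Log2 fold change, transplanted minus cultured, of each gene of 8 lists (columns) in heart (red), kidney (blue) and tail (green) fibroblasts, with a black bar at each median. Filled points have an adjusted p below 0.05 (edgeR) and open points do not. Heart lies below kidney for ER chaperones (medians -0.37 and 0.12) and cytosolic heat shock genes (-1.06 and 0.05), whereas ER-associated degradation is below 0 in all 3.

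Chaperones outside the ER were compared as a reference. Of 12 cytosolic and mitochondrial heat shock genes, 9 fell and none rose in heart, 4 rose and 3 fell in kidney (5 and 3 without KFs replicate 3) and 1 rose and 4 fell in tail, with medians of -1.06, 0.05 and -0.08. Hsph1, an HSP110, had the largest fall in heart (-2.13 ± 0.10, adjusted p = 5.95e-10). The HSP70 gene Hspa1a rose in kidney (1.02 ± 0.34, adjusted p = 0.0217), the cochaperone Dnaja1 rose in kidney (0.34 ± 0.07, adjusted p = 0.00137) and tail (0.20 ± 0.07, adjusted p = 0.0451), and the small heat shock gene Hspb1 fell in heart (-1.96 ± 0.33, adjusted p = 0.00012), kidney (-1.43 ± 0.32, adjusted p = 0.00169) and tail (-1.61 ± 0.33, adjusted p = 0.00122). Hspa1a was at 17.65 to 18.08 CPM in KFc and at 23.93, 62.34 and 22.65 CPM in KFs, so replicate 2 carried most of its kidney rise. The kidney fall of Hspb1 was -2.22 ± 0.16 without KFs replicate 3. The heart and kidney responses differed for 7 of the 12, all more negative in heart, beside 15.5% of all genes. Without that library they differed for 8, all more negative in heart, beside 17.2% of all genes. Falls of chaperone genes in heart were thus also measured outside the ER.

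Matrix genes, whose products are a main client of the ER in fibroblasts, were read from a list of 10, drawn as secreted matrix cargo. It holds 7 secreted proteins and the ER-resident collagen chaperone Serpinh1 and hydroxylases P4ha1 and Plod2. Of the 10, 5 rose and none fell in heart, 7 rose and none fell in kidney (9 rose without KFs replicate 3) and 4 rose and 1 fell in tail. Serpinh1, P4ha1 and Plod2 rose in kidney (0.80, 1.27 and 1.03) and were at -0.40, -0.08 and -0.50 in heart without passing the test. They were the list's 3 members whose response differed between heart and kidney (-1.21 ± 0.32, -1.35 ± 0.27 and -1.53 ± 0.32, adjusted p = 0.0119, 0.00227 and 0.00278), and 4 differed without KFs replicate 3. Col3a1 was at 5344 to 6109 CPM in HFc and 33990 to 51690 CPM in HFs (3.00 ± 0.47, adjusted p = 7.12e-05), at 2878 to 2979 CPM in KFc and 34930, 22010 and 4259 CPM in KFs (2.80 ± 0.47, adjusted p = 0.000168), and at 1158 to 1193 CPM in TFc and 8777 to 10460 CPM in TFs (3.03 ± 0.47, adjusted p = 0.000146). KFs replicate 3 was again the lowest of its group. The fall in tail was that of fibronectin, Fn1 (-0.52 ± 0.16, adjusted p = 0.0188).

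Other measures moved with the state of the cells and are given here for the member results above. Immediate early genes, which rise within minutes of handling or stimulation, rose for 9 of 10 genes in heart, 10 in kidney and 8 in tail, and Fosb went from 2.11 to 149 CPM (means) in heart, from 2.81 to 147 CPM in kidney and from 1.82 to 70.6 CPM in tail. Their part in the member results was not tested. Proximal tubule markers (10 genes) summed to 22.5 to 25.0 CPM in HFc and 118 to 1170 CPM in HFs, to 103 to 111 CPM in KFc and 60.1 to 124 CPM in KFs, and to 19.5 to 21.8 CPM in TFc and 136 to 318 CPM in TFs, with 5, 6 and 4 of the markers at 0 in the cultured and none in the transplanted groups. HFs replicate 2, at 1170 CPM, had Hspa5 at 541 CPM, beside 547 CPM in replicate 1 with a marker sum of 151 CPM and 624 CPM in replicate 3 with the lowest sum, 118 CPM. The tubule sum of KFc was mostly Lrp2, at 92.0 to 99.2 CPM, which was at 22.7 to 55.2 CPM in KFs. The 6 tubule markers at 0 in KFc were at 0.2 to 16.7 CPM in KFs. Plasma cells, which have a high unfolded protein response, were represented by 8 markers. Their sum was 71.7 to 73.6 CPM in HFc and 265 to 299 CPM in HFs, nearly all of it Sdc1, at 263 to 298 CPM, which other cell types also express, while Jchain, Igkc, Mzb1 and Tnfrsf17 were at 0.132 CPM or less. The same sum was 106 to 108 CPM in KFc and 171 to 295 CPM in KFs, and 129 to 132 CPM in TFc and 132 to 185 CPM in TFs. Macrophage markers (10 genes) summed to 96.2 to 110 CPM in HFc and 91.9 to 157 CPM in HFs, to 448 to 482 CPM in KFc and 37.4 to 139 CPM in KFs, and to 183 to 214 CPM in TFc and 38.3 to 46.7 CPM in TFs. Endothelial markers (8 genes) summed to 75.0 to 78.3 CPM in HFc and 112 to 117 CPM in HFs, to 75.9 to 79.0 CPM in KFc and 114 to 128 CPM in KFs, and to 51.5 to 59.1 CPM in TFc and 81.2 to 97.6 CPM in TFs. Neutrophil markers (8 genes) summed to at most 11.8 CPM in the cultured and to 15.3 to 21.2 CPM in the transplanted libraries. Most of this was Csf3r and Cxcr2, the latter already at 5.07 to 9.26 CPM in the cultured libraries. Ly6g was at 0 in every library, and S100a8, S100a9, Mpo, Elane and Retnlg were at 1.31 CPM or less. Erythroid markers (6 genes) were at or below 0.209 CPM in the cultured libraries and at 38.4, 0.132 and 42.5 CPM in HFs, 7.56, 3.04 and 0.120 CPM in KFs and 7.28, 2.64 and 8.57 CPM in TFs. The part of these cell types in the member results was not tested, other than by the term for tubule markers above, which does not measure host cells alone. In bulk RNA a change in the share of a cell type and a change per cell cannot be told apart.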

How the data were processed

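RNA of 18 libraries, 3 in each of 6 groups, was analysed. According to the study's methods, the authors filtered and trimmed single-end reads of 75 bases, mapped them with strand to GRCm38 by Bowtie2 run from RSEM, and deposited expected counts per gene (estimated counts, here all whole numbers) without normalization. The submitters' processing notes name mm9 instead. GRCm38 was used here for positions, with symbols from GENCODE M21, which held 37607 of the 38924 identifiers, and promoters from RefSeq. The 10 genes, the gene lists and the tests were chosen with earlier results of these data known.

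Genes with too few counts were removed by edgeR 4.0.16 (filterByExpr, R 4.3.3), libraries were scaled by TMM, and 1 quasi-likelihood model (glmQLFit, glmQLFTest) with a mean for each of the 6 groups was fitted to all libraries. Tests were two-sided. Benjamini-Hochberg adjustment covered the 16577 genes tested, and calls had an adjusted p below 0.05. The SE of a log2 fold change was derived from its F statistic (log2 fold change over √F). Levels are TMM-scaled CPM. A count of 3 corresponded to 0.093 to 0.167 CPM per library, a floor for counting error only. Libraries of a group differed by more than sampling noise (chi-square per degree of freedom 4.58 to 269), so none was the same library sequenced again. This cannot show that they came from separate cultures or animals. The fit was checked on simulated data drawn with the same spread in all groups. That check cannot cover the unequal spread of these groups.

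The text names all 10 members and, of each list, the largest rise and the largest fall among called genes in each transplant comparison, with Atf4, Atf6, Ern1 and Eif2ak3 always. Ero1a and Ero1b were matched through older symbols. The alternatives were DESeq2 1.42.0, its size factors, library size alone, other filters, a replicate block, fits restricted to the groups compared, stricter thresholds, the proximal tubule marker level as a term for the transplanted libraries, and leaving out each library. Figures were drawn with matplotlib 3.10.9.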

Additional observations from a re-analysis of the deposited data

Results flagged for a closer look

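For 5 genes the response to transplantation differed between organs by the test of the difference itself, and these are the 9 differences to look at again. Between heart and kidney the log2 changes differed by -1.24 for Hspa5, -1.08 for Hsp90b1, -0.98 for Calr, -1.12 for Sdf2l1 and -1.35 for Creld2, each more negative in heart. The calls of Hsp90b1 and Calr ended in the fit of the groups compared alone (adjusted p = 0.0514 and 0.0586). Both also ended without HFs replicate 1 or 2 (adjusted p = 0.051 to 0.0628), and that of Calr without KFs replicate 2 (adjusted p = 0.0512). Between heart and tail the log2 changes differed by -0.91 for Hspa5, -0.98 for Sdf2l1 and -0.54 for Creld2, again more negative in heart. That call of Sdf2l1 ended without HFs replicate 1 or 2, TFc replicate 3 or TFs replicate 2 (adjusted p = 0.0586 to 0.0838). Between kidney and tail the difference was 0.80 for Creld2, more positive in kidney. No group was large enough to look for single libraries far from the others by a rule, and KFs replicate 3 is described by its sex-linked genes instead.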

How the results depend on the processing

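Fitted with a replicate block, the counts of called members were 6, 7 and 3 in the heart, kidney and tail transplant comparisons, against 6, 7 and 4. The numbers were not treated as pairs, since same-numbered libraries had residual correlations of -0.19 to 0.12 over 27 pairs, 1 of them over 0.1. Beside Sdf2l1 in tail, the block ended the call of Hsp90b1 in HFs against KFs (adjusted p = 0.057).

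The values followed were those of all 10 members in the 3 transplant comparisons and of the called members alone in the other 9 comparisons, where a gained call shows only in the counts below. Of 911 values so recomputed, 793 kept their direction and side of the threshold, 94 lost the call, 8 gained it and 16 reversed, all 16 uncalled in the report. Xbp1 in heart became 0.03 with DESeq2 and with its size factors, 0.01 with a mean of at least 10 counts and with no filter, 0.02 in a fit of the 2 groups, and between -0.04 and 0.04 when 1 library was left out (0.04 and 0.03 without HFs replicates 2 and 3). Xbp1 in kidney became -0.02 with a mean of at least 10 counts, -0.01 with no filter, under the block and without KFc replicate 1, and -0.12 and -0.14 without KFs replicates 1 and 2, in a range of -0.14 to 0.18 over the libraries left out. Over the libraries left out, Ddit3 ran from -0.39 to 0.11 in heart (0.11 without HFs replicate 3) and from -0.11 to 0.20 in tail (-0.11 without TFs replicate 1), and Calr from -0.19 (without KFs replicate 2) to 0.27 in kidney. The cause was not tested.

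A log2 limit of 1 left 2, 0 and 1 members in the transplant comparisons. An adjusted p below 0.01 left 3 in KFs against KFc, 1 in HFc against TFc, 1 in HFc against KFc, 0 in KFs against TFs and 3 in the heart against kidney response. A fit of only the groups compared, which has fewer libraries, gave 2 in KFs against KFc, 8 in HFc against TFc, 8 in HFc against KFc, 0 in KFs against TFs, 1 in HFs against KFs, 6 in the heart against tail response and 3 in the heart against kidney response. HFc against KFc gave 4 with DESeq2, 1 with a mean of at least 10 counts and 1 with no filter. KFs against TFs gave 0 with DESeq2 size factors and with no filter. With proximal tubule markers as a covariate HFs against TFs gave 1 and HFs against KFs 0, although the differences stayed about as large (Hspa5 -0.85 and -0.88, Creld2 -0.84 and -0.82). The heart against tail response gave 5 with library size alone.

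Leaving out 1 replicate at a time gave 6 to 7 members in heart, 3 to 8 in kidney, 3 to 5 in tail, 3 to 5 in HFc against TFc, 4 to 8 in KFc against TFc, 1 to 6 in HFc against KFc, 4 to 8 in HFs against TFs, 0 to 2 in KFs against TFs, 2 to 7 in HFs against KFs, and 2 to 6, 1 to 5 and 3 to 6 in the heart against tail, kidney against tail and heart against kidney responses. Each highest count was reached without KFs replicate 3. It was also reached without HFc replicate 3 or TFc replicate 3 in HFc against TFc, without KFs replicate 2 in KFs against TFs, and without KFs replicate 1 in the heart against kidney response.

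Library size alone shifted the median of all genes to -0.25 in HFs against TFs and -0.25 in HFs against KFs, and lowered the share of calls that were higher from 44.8% to 19.6% and from 42.8% to 23.0% there, from 49.9% to 35.5% in HFc against TFc and from 52.0% to 40.6% in HFc against KFc. Library totals and 3 libraries per group limit what can be detected. The lowest value of any member was 4.81 CPM, for Sdf2l1 in HFs replicate 1.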
